A study of Mus musculus with 8 samples.

Results

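The genes Clec4a1, Clec4a2, Clec4a3, Clec4d, Clec4e, Clec4n, Clec7a and Clec10a encode C-type lectin receptors of macrophages, monocytes, dendritic cells and neutrophils. These 8 genes were selected by symbol from the 24612 genes of the deposited expression table, and all 8 were among the 23185 genes tested. They were grouped by family and cell type with results of the same libraries already known, so their levels and differences are given as a description, without p-values. Calls among them are counted beside those over all genes, likewise as a description.

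C-type lectin receptors bind sugars and lipids on microbes and on damaged or dying host cells. Mincle (Clec4e), MCL (Clec4d) and Dectin-2 (Clec4n) signal through the Fc receptor gamma chain (Fcer1g), whereas Dectin-1 (Clec7a), a receptor for fungal beta-glucan, carries its own activating motif, and both routes lead through the kinase Syk and the adaptor Card9 to cytokine genes. The dendritic cell immunoreceptor encoded by Clec4a2 recruits inhibitory phosphatases instead, Clec4a1 and Clec4a3 are close relatives of it, and Clec10a encodes MGL1, a galactose-type lectin found on resident dermal macrophages and dendritic cells.

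RNA was measured in homogenised skin of male C57BL/6 J mice, 6 weeks old at the start of treatment, with 21 days of treatment. The PBS group (2 libraries) received 0.1 mL of phosphate-buffered saline under the skin. The bleomycin group (3 libraries) received 0.1 units of bleomycin, a DNA-damaging drug used to model skin fibrosis, by the same route, and the celastrol group (3 libraries) received the plant triterpenoid celastrol intraperitoneally every day at 1 or 2 mg/kg. The labels state neither the dose of a given celastrol mouse nor whether the celastrol mice were also given bleomycin, and celastrol is therefore compared below with both other groups. No other allele, transgene or agent is named for any group. Libraries are named by group and replicate number, and nothing in the labels says how the replicates were collected beyond their number, so the p-values measure the spread between these samples.

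Estimated depth was 14932600 to 37074200 reads per library. On principal component 1, which held 32.7% of the variance, Celastrol 2 scored 237.5 and the other 7 libraries lay between -57.3 and -3.63. Of 16612 genes with a mean of at least 50 in the other libraries, 312 were listed at 0 in Celastrol 2, against 1 to 79 in each other library. Where the direction of a receptor gene turned without Celastrol 2, the value without it is therefore also given. Other celastrol values include it unless stated. The basal keratinocyte gene Krt5 lay between 20750 and 77755 in the 8 libraries and skeletal muscle genes were also present (summed level of 10 markers, 84862 to 260086). Values throughout are the authors' normalized signal on a linear scale, and differences are on the log2(value + 1) scale with the standard error (SE) of a limma fit of all 8 libraries.

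Of the 8 genes, 7 lie on chromosome 6 of mm10 and 1, Clec10a, on chromosome 11 (70156197 to 70170834, plus strand). Within 368 kb stand, in order, Clec4a1 (122921848 to 122934619), Clec4a3 (122952515 to 122969875), Clec4a2 (123106428 to 123143999), Clec4n (123229843 to 123247021) and Clec4d (123262111 to 123275265) on the plus strand, and Clec4e (123281789 to 123289870) on the minus strand. Clec4d and Clec4e run towards each other and are 6.52 kb apart. Clec7a lies 6172 kb further on, at 129461591 to 129472779 on the minus strand, in the natural killer gene complex, and the GENCODE M21 annotation lists it as a polymorphic pseudogene. Exons of no other annotated gene overlapped those of the 8. Of the 50-base stretches in their transcripts, 9.02% for Clec10a were shared with other genes, including its neighbour Mgl2, and 6.83% for Clec4a2, including Clec4a4 and Clec4b1. The share was 0.686% for Clec4n and 0 for the other 5. Reads from the shared stretches of Clec10a and Clec4a2 may have been divided among these genes by the counting.

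RefSeq promoter windows (GRCm38.p6, 250 bases before to 50 after the start of transcription) were found for 6 of the 8 genes, and none were found for Clec4n and Clec10a. The windows shown here belong to the neighbours Clec4d and Clec4e, which had the highest ratios to PBS, to Clec4a1, and to Clec4a2, whose window lacked the motif that the other 5 share. They are written 5′ to 3′ on the strand of the gene, with GAGGAA or its reverse complement TTCCTC, a core bound by the myeloid factor PU.1, in capitals.
Clec4e promoter, chr6:123289822-123290121, minus strand: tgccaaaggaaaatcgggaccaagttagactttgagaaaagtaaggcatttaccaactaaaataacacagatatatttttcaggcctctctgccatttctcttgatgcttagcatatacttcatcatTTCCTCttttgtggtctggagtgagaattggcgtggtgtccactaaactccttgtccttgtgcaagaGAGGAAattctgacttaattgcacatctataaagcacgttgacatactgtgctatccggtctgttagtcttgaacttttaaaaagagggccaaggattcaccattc
Clec4d promoter, chr6:123261857-123262156, plus strand: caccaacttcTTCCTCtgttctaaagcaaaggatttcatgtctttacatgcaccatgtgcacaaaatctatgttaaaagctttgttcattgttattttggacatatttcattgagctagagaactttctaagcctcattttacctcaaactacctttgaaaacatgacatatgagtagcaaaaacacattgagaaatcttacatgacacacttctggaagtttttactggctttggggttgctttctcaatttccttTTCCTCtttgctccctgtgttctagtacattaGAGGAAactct
Clec4a1 promoter, chr6:122921598-122921897, plus strand: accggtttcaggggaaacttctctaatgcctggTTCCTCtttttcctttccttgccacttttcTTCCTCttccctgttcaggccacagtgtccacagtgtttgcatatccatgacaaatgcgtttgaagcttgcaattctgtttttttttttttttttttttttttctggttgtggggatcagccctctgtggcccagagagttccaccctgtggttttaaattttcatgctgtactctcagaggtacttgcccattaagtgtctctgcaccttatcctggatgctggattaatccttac
Clec4a2 promoter, chr6:123122440-123122739, plus strand: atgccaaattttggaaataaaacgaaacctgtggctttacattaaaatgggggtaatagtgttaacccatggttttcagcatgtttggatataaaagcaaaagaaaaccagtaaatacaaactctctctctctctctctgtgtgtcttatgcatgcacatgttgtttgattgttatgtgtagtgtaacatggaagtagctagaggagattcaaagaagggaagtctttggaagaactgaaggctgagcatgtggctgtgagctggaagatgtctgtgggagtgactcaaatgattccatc
GAGGAA, searched on both strands, was present in Clec4a1, Clec4a3, Clec4d, Clec4e and Clec7a (5 of 6), and in 31.3% of 27025 genes with a window. In Clec4a3 it was in 1 of 2 alternative windows. The Clec4a2 window lies within the gene, whose annotated span starts at 123106428, so sequence at that start was not searched. TTGCNNAA, a pattern of C/EBP factors, was found on either strand in Clec4e alone, next to a GAGGAA but not overlapping it, and in 12.2% of all genes. A consensus of NF-kappa B, whose last letters can overlap TTCCTC, matched 0 of the 6 genes and 1.89% of all genes. These matches describe letters in short windows and not binding.

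Relative to PBS skin, bleomycin skin had 7 of the 8 lectin receptor transcripts at higher values and Clec10a at lower values. For each of the 8 the bleomycin libraries and the PBS libraries occupied separate ranges. Of all genes tested, 12% lay wholly above PBS and 11.6% wholly below, and the 8 were chosen with results of these libraries known. The activating receptors Clec4e, Clec4d and Clec4n had the highest ratios, at 27.2, 33.3 and 10.2 times the PBS mean. Clec4a1, Clec4a3, Clec7a and Clec4a2 had ratios of 2.76, 2.10, 1.88 and 1.66, and Clec10a of 0.601. Bulk skin RNA cannot tell more or fewer cells of a type from more or less RNA per cell.

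The receptor for mycobacterial cord factor and for a protein released by dead cells, Clec4e, was listed at 15.3 and 4.41 in PBS 2 and PBS 3. Its values were 170.1, 316.3 and 318.9 in Bleomycin 2, 3 and 4, and 223.2, 111.3 and 204.9 in Celastrol 2, 3 and 5. Both PBS libraries were thus below every treated library, while the bleomycin and celastrol ranges overlapped. The log2 difference was 4.78 ± 0.64 (SE) for bleomycin minus PBS, 4.20 ± 0.64 for celastrol minus PBS and -0.58 ± 0.57 for celastrol minus bleomycin. The PBS values rest on about 26 reads, and counting error alone puts the ratio of bleomycin to PBS between 18.6 and 41.7 (95% exact Poisson interval of the PBS reads). The spread between the PBS libraries comes on top of that, and the bleomycin difference was 3.99 without PBS 3 and 5.58 without PBS 2.

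Clec4d encodes MCL, which forms a complex with Mincle. It stood at 4.17 in PBS 2, about 6 reads, and was listed at 0 in PBS 3, where 3 reads would be worth 3.31. It stood at 59.2, 70.6 and 78.6 in the bleomycin libraries and at 37.8, 50.6 and 103.9 in the celastrol libraries. The PBS libraries were again the lowest, and the celastrol libraries spanned a wider range than the bleomycin libraries, on both sides of it. The log2 difference was 4.94 ± 0.96 for bleomycin and 4.71 ± 0.96 for celastrol, each minus PBS, and -0.24 ± 0.86 for celastrol minus bleomycin, which turned to 0.07 without Celastrol 2. With so few PBS reads the bleomycin ratio of 33.3 has a counting interval of 15.3 to 90.7. The bleomycin difference was 3.76 without PBS 3, 6.13 without PBS 2 and 3.45 with a pseudocount of 5.

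Clec4n, the receptor for fungal mannans, was measured at 73.0 and 47.4 in the PBS libraries, at 420.7, 803.9 and 616.5 in the bleomycin libraries and at 206.8, 442.0 and 696.6 in the celastrol libraries. No treated library came down to the PBS range, and Celastrol 2 was the lowest treated library. The difference from PBS was 3.31 ± 0.50 for bleomycin and 2.74 ± 0.50 for celastrol. Celastrol minus bleomycin was -0.57 ± 0.45, and -0.10 when Celastrol 2 was left out.

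Clec7a, the beta-glucan receptor, differed less than those 3 genes. Its values were 315.0 and 236.1 for PBS, 400.1, 618.3 and 533.5 for bleomycin, and 430.0, 305.4 and 505.2 for celastrol. The lowest celastrol value, in Celastrol 3, fell within the PBS range, so these groups overlapped, whereas all bleomycin values were above PBS. The log2 difference was 0.90 ± 0.32 for bleomycin and 0.57 ± 0.32 for celastrol, each minus PBS, and -0.33 ± 0.29 between them.

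**Figure D1:**
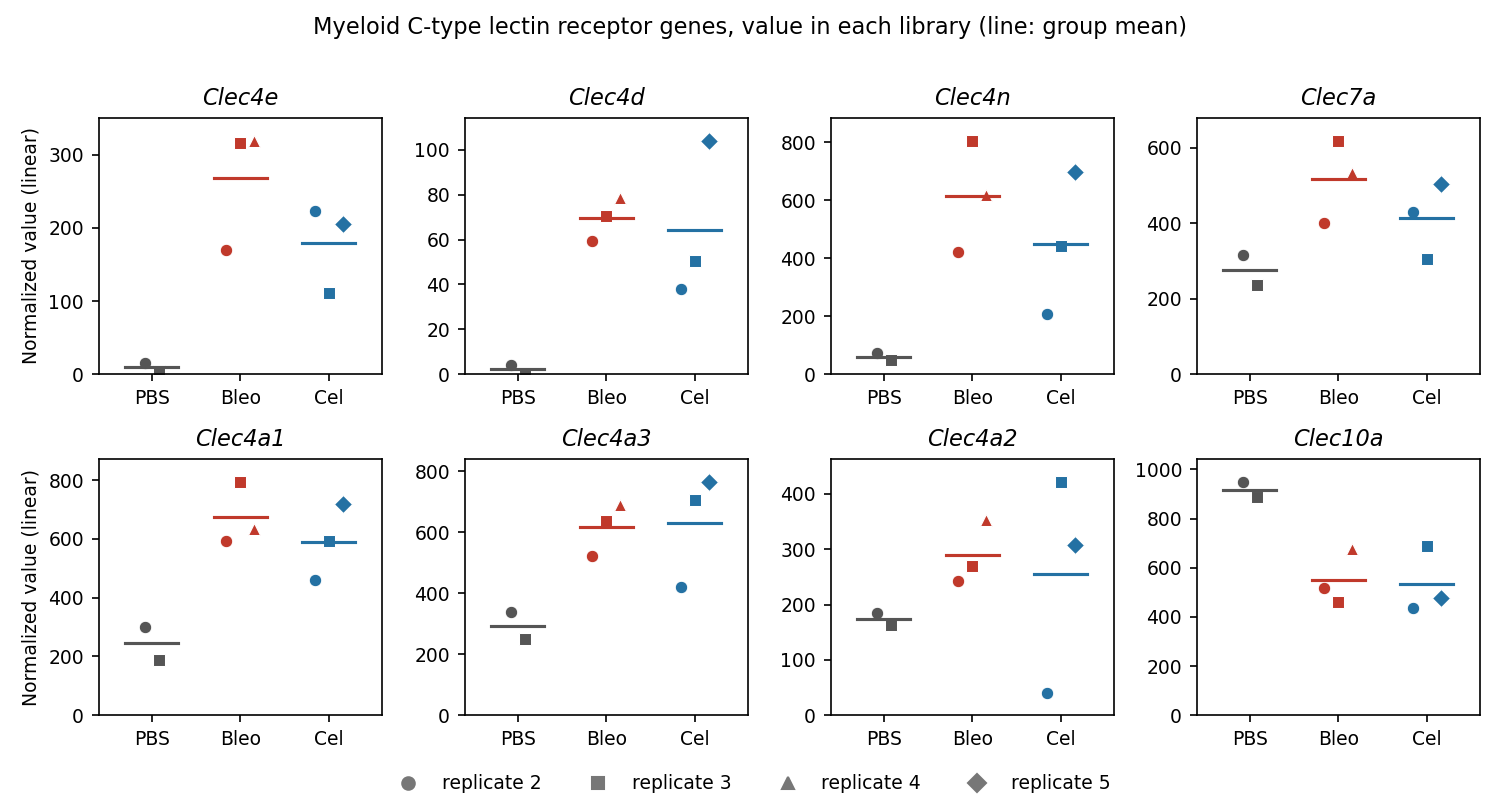
Normalized value (linear axis from 0, one scale per gene) of each of the 8 receptor genes in PBS, bleomycin (Bleo) and celastrol (Cel) libraries. Points are libraries with the symbol giving the replicate number, and lines are group means. Clec4e in PBS lies at 15.3 or less, all treated libraries at 111.3 or more, and Clec10a is highest in PBS.

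The 3 dendritic cell immunoreceptor genes had smaller differences from PBS than Clec4e, Clec4d and Clec4n, and all 3 were higher in bleomycin skin. Clec4a1 was at 301.1 and 187.6 in PBS, 593.6, 793.4 and 633.4 in bleomycin and 459.6, 592.1 and 720.1 in celastrol skin. All 6 treated libraries were above both PBS libraries, with a difference from PBS of 1.49 ± 0.30 for bleomycin and 1.29 ± 0.30 for celastrol. Celastrol minus bleomycin was -0.20 ± 0.27.

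Clec4a3, another close relative of Clec4a2, was at 339.4 and 248.5 in PBS, 521.3, 636.6 and 690.8 in bleomycin and 421.8, 706.9 and 764.2 in celastrol skin. Again no treated library reached down to PBS, and Celastrol 2 was the lowest of the 6. Differences from PBS were 1.07 ± 0.31 in both treated groups, and the difference between them was -0.00 ± 0.28, or 0.26 without Celastrol 2.

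Clec4a2, the inhibitory member, was at 184.4 and 163.5 in PBS and at 243.1, 269.6 and 353.6 in bleomycin skin, a difference of 0.71 ± 0.80. In celastrol skin it was at 39.4, 421.1 and 306.8. Celastrol 2 was thus the lowest of all 8 libraries and Celastrol 3 the highest, on either side of both other groups. The SE of 0.80 for bleomycin minus PBS comes from the fit of all 8 libraries, so the spread of the celastrol libraries enters it. Celastrol minus PBS was -0.01 ± 0.80 with all libraries and 1.05 without Celastrol 2, and celastrol minus bleomycin was -0.72 ± 0.72 and 0.33 without it. The direction of this gene in celastrol skin turned with that library.

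Clec10a ran opposite to the others. It was at 948.0 and 887.8 in PBS, 515.9, 460.7 and 677.3 in bleomycin and 436.6, 686.6 and 478.1 in celastrol skin. All 6 treated libraries were below both PBS libraries, and the treated groups covered nearly the same range. The difference from PBS was -0.75 ± 0.27 for bleomycin and -0.81 ± 0.27 for celastrol, and celastrol minus bleomycin was -0.06 ± 0.24, or 0.07 without Celastrol 2.

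**Figure D2:**
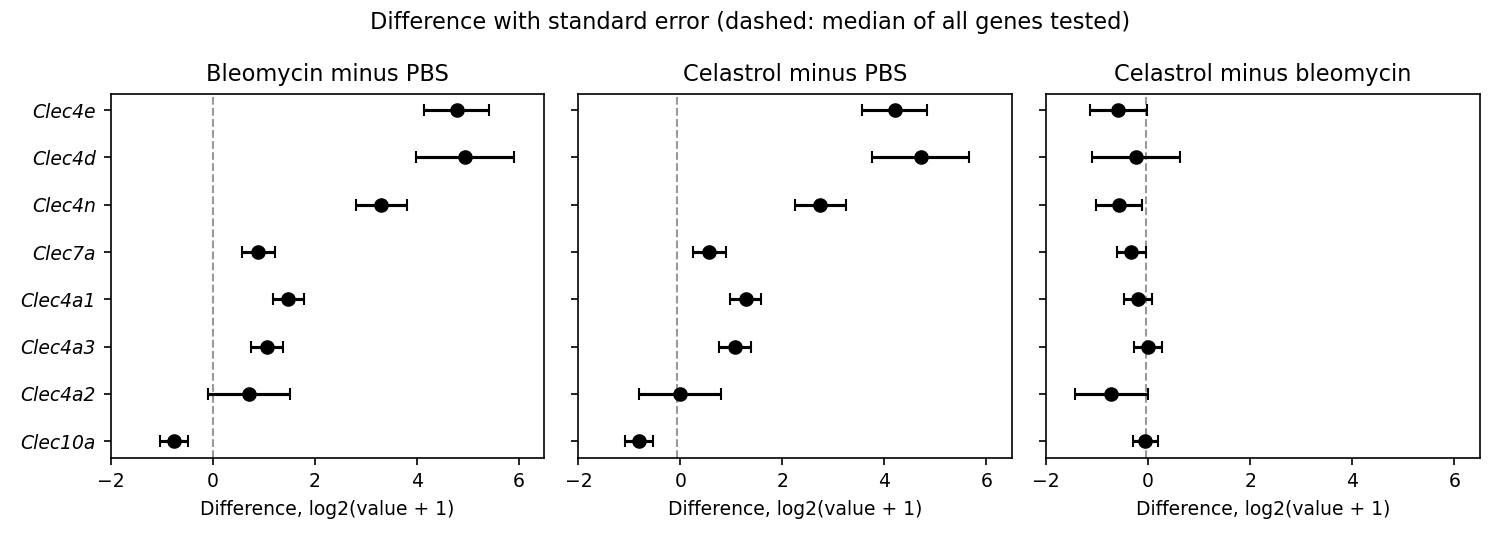
Difference in log2(value + 1) of the 8 receptor genes for the 3 pairs of groups. Points are fitted differences, bars the SE of the limma fit, and dashed lines the median of the 23185 genes tested. Clec4e, Clec4d and Clec4n lie at 2.74 or more in both comparisons with PBS, Clec10a lies below 0 in both, and in celastrol minus bleomycin all 8 points lie between -0.72 and -0.00.

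Over all genes limma called 157 of 23185 between bleomycin and PBS, of which 105 were higher (0.453% of the genes tested) and 52 lower (0.224%). Among the 8 receptor genes 2 were called higher, Clec4e and Clec4n, and 0 lower, and since the genes were chosen with these differences known nothing is read from that count. Their median difference was 1.28, beside -0.00 over all genes tested. Groups did not overlap for 7 genes above PBS, beside 12% of all genes, and for 1 below, beside 11.6%. None of the 8 passed without PBS 3, without Bleomycin 3 or without Bleomycin 4, and the median was then 1.00, 1.20 and 1.26.

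Between celastrol and PBS 317 genes were called, 191 higher (0.824%) and 126 lower (0.543%). Here 3 of the 8, Clec4d, Clec4e and Clec4n, were called higher and 0 lower, and the median was 1.18, beside -0.07 over all genes. No overlap was seen for 5 genes above PBS (13.2% of all genes), and 1 below (13.7%), while Clec7a and Clec4a2 overlapped. None of the 8 passed without PBS 3 or without Celastrol 5, with medians of 0.90 and 1.02, and 1 passed without PBS 2, without Bleomycin 4 or without Celastrol 3. This comparison and the preceding one share the PBS libraries, so the likeness of their values is no separate evidence.

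Between celastrol and bleomycin limma called 0 genes of all those tested, with 898 at an unadjusted p under 0.05, and none of the 8 receptor genes was among those 898. All 8 overlapped between these groups, while 4.13% of all genes lay wholly above and 4.59% wholly below. The median of the 8 was -0.28 with every library and 0.02 without Celastrol 2, where 4 of the 8 differences were positive. A lower level of these transcripts in celastrol than in bleomycin skin was therefore not shown, and with SEs of 0.24 to 0.86 smaller differences could not be resolved.

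Exon length was used to compare levels between genes. Per kilobase of exon, Clec10a had the highest mean level in PBS skin, 317 ± 14.7 (SD, n = 2), followed by Clec4a3 at 222 ± 48.4 and Clec4a1 at 157 ± 51.5. Clec7a was at 104, Clec4a2 at 59.4, Clec4n at 42.4, Clec4e at 1.99 and Clec4d at 1.30. The ranges of neighbours in this order overlapped between Clec4a3 and Clec4a1 and between Clec4e and Clec4d, and the others did not overlap in the 2 PBS libraries.

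In bleomycin skin the order of levels per kilobase was different. Clec4a3 (464 ± 65.2, n = 3), Clec4a1 (432 ± 67.9) and Clec4n (432 ± 135) stood together at the top, within each other's spread. Clec7a (196 ± 41.7) and Clec10a (190 ± 38.8) also did not separate, and Clec4a2 (98.7), Clec4e (54.1) and Clec4d (43.5) followed. In celastrol skin Clec4a3 (475 ± 138), Clec4a1 (379 ± 83.6) and Clec4n (316 ± 173) were again the highest, and Clec4d (40.1) and Clec4e (36.2) the lowest, with overlapping ranges. Of the summed level per kilobase of the 8 genes, Clec10a made up 35.4% in PBS, 10.1% in bleomycin and 11.4% in celastrol skin, and Clec4n 4.64%, 22.3% and 17.9%. The sum itself was 1016 and 794 in the PBS libraries, 1554 to 2148 in the bleomycin libraries and 1154 to 2096 in the celastrol libraries, with Celastrol 2 lowest of the treated libraries.

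**Figure D3:**
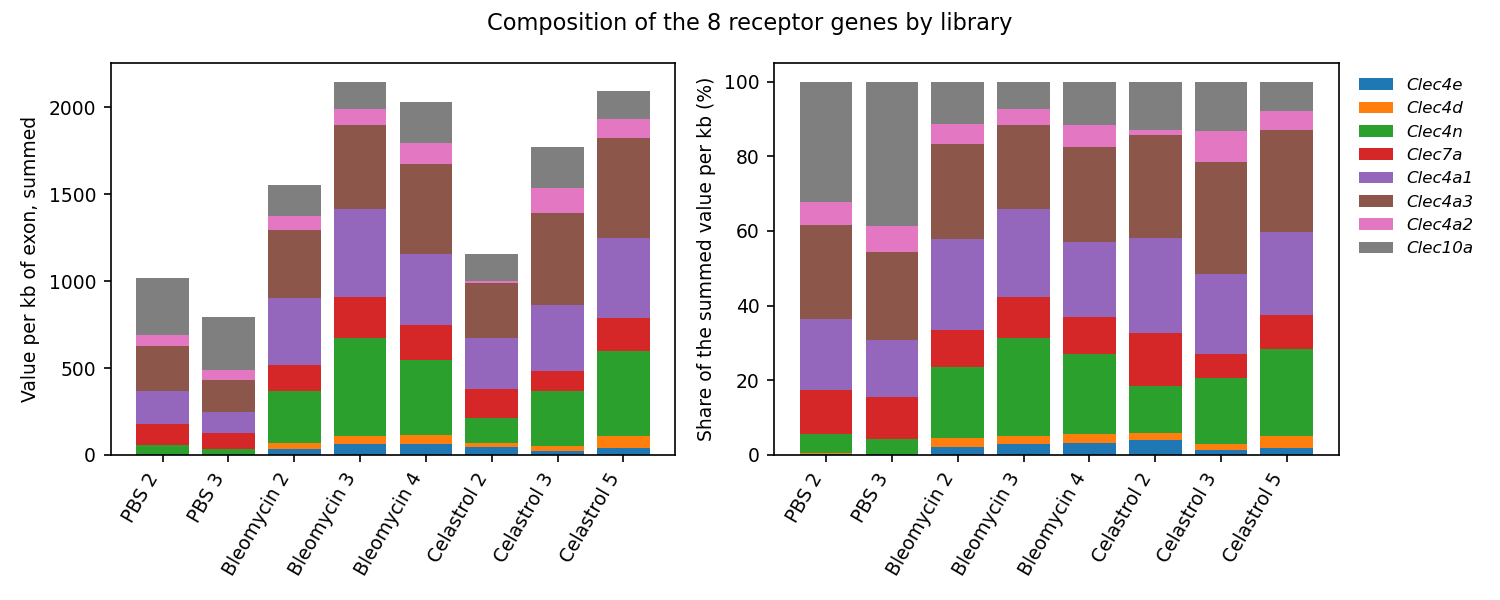
Level per kilobase of exon of the 8 receptor genes stacked by library (left, linear axis from 0) and as a share of their sum in percent (right). Clec10a takes 35.4% of the sum on average in PBS libraries and 10.1% in bleomycin libraries, and the summed level of both PBS libraries is below that of every treated library.

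Markers of myeloid cells also differed from PBS. Of 15 macrophage markers limma called 2 higher, the protease gene Ctss and the Fc receptor gene Fcgr1, and 0 lower in either treated group against PBS. The other 13 did not pass. At an unadjusted p under 0.05, 7 were higher and 0 lower for bleomycin, and 5 higher and 1 lower for celastrol. Differences were negative for 3 of the 15 in each comparison, down to -0.96 (Cd163) for bleomycin and -1.14 for celastrol. Their summed level was 17127 to 20832 in PBS, 26487 to 31733 in bleomycin and 20609 to 36284.5 in celastrol skin, with Ctss, Lyz2 and Cd163 the highest, and 0 of the 15 were at 0 in any library. Ctss rose by 1.73 ± 0.30 in bleomycin skin (limma adjusted p = 0.031) and Fcgr1 by 4.05 ± 0.73 (adjusted p = 0.0366). With 1 library left out the Ctss difference was 1.62 to 1.94 and failed without PBS 2, PBS 3, Bleomycin 3 or Bleomycin 4, and the Fcgr1 difference was 2.37 to 5.73 and failed without PBS 3, Bleomycin 3, Bleomycin 4 or any 1 of the celastrol libraries. In celastrol skin the Ctss rise was 1.67 ± 0.30 (adjusted p = 0.0254) and the Fcgr1 rise 4.18 ± 0.73 (adjusted p = 0.0241), and both failed without Celastrol 5, among others, at 1.42 to 1.96 and 2.50 to 5.86 over the libraries left out.

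Monocyte markers, 9 in all, had 3 called higher in bleomycin skin, Ms4a4c, Chil3 and Ly6c2, and 4 in celastrol skin, these and Plac8, with 0 called lower. The list was mixed in direction. For bleomycin minus PBS 7 differences were positive and 2 negative, down to -1.35 (Fn1), and for celastrol minus PBS 5 and 4, down to -1.82. By limma, 1 and 2 were lower at an unadjusted p under 0.05, beside 5 higher in each. Ms4a4c rose by 3.71 ± 0.31 in bleomycin skin (limma adjusted p = 0.00186) and passed under all 14 alternatives tried. The summed level of the list was 18562 to 30900 in PBS, 15396 to 20222.5 in bleomycin and 10649 to 18833 in celastrol skin. Its highest members were F13a1, Ccr2 and Fn1, the fibronectin gene that fibroblasts also express. Neutrophil markers, of which 9 of 14 were measured, had S100a8 and Stfa2 higher and Il1r2 lower in bleomycin skin, and S100a9 higher as well in celastrol skin. Their summed level was 2691 to 2884 in PBS, 2303 to 7429 in bleomycin and 3652 to 4621 in celastrol skin, with Cxcr2, Il1r2 and S100a9 the highest, and the alarmin S100a8 was at 0.695 and 0 in PBS. The part of these cell types in the receptor differences was not tested. Of the marker calls named here and in the next paragraph, those of Ms4a4c in both comparisons and of Chil3 and Flg in celastrol skin held under all 14 alternatives. Every other call against PBS failed without Bleomycin 4 in bleomycin skin and without Celastrol 5 in celastrol skin.

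Lists of other cell types were counted in the same way. Of 12 dendritic cell markers 0 passed in bleomycin skin, with 4 at an unadjusted p under 0.05, and Cd24a, which keratinocytes also express, rose in celastrol skin. Of 6 Langerhans cell markers 0 passed in bleomycin skin, with 2 at an unadjusted p under 0.05, and the class II gene H2-Eb1 fell in celastrol skin. Of 7 fibroblast markers limma called 4 lower in bleomycin and 5 in celastrol skin, with medians of -2.10 and -2.07. All 7 differences were negative and at an unadjusted p under 0.05 in both comparisons. The keratinocyte gene Flg was the 1 of 8 markers called higher in both. At an unadjusted p under 0.05, 2 keratinocyte markers were higher for bleomycin, and 3 higher and 1 lower for celastrol. Of 10 skeletal muscle markers 1 was called higher in bleomycin and 4 in celastrol skin. Their differences were positive for 8 and 10, with 2 and 8 higher at an unadjusted p under 0.05. In the mast cell, T and NK cell, B cell and red blood cell lists limma called 0 genes in either comparison with PBS, with 1, 2, 0 and 0 at an unadjusted p under 0.05 for bleomycin and 5, 2, 0 and 1 for celastrol. Between celastrol and bleomycin limma called 0 genes of any cell type list, with 8 of 10 skeletal muscle markers at an unadjusted p under 0.05, all higher in celastrol skin, and 0 or 1 marker in each other list.

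The receptor genes were next set against the mean log2 level of the 15 macrophage markers in the same library. That mean was itself 0.77 higher in bleomycin and 0.77 higher in celastrol than in PBS skin. Its 15 members ran from -0.96 (Cd163) to 4.05 (Fcgr1) for bleomycin minus PBS, with a median of 0.68, 12 positive and 3 negative. Fcgr1, at 9.93 in PBS 3, weighs most in the change of the mean, so the values below depend on the markers chosen. On this relative scale, bleomycin minus PBS was 4.17 for Clec4d, 4.01 for Clec4e and 2.54 for Clec4n. It was 0.71 for Clec4a1, 0.30 for Clec4a3, 0.13 for Clec7a, -0.06 for Clec4a2 and -1.53 for Clec10a. Clec7a, Clec4a3 and Clec4a2 thus differed by 0.30 or less from the change in the mean of these markers. Clec4e, Clec4d and Clec4n exceeded it and Clec10a was below it. Whether any receptor followed the amount of macrophages was not tested. Celastrol minus PBS on this scale was 3.94, 3.43, 1.97, 0.52, 0.30, -0.20, -0.78 and -1.58 for Clec4d, Clec4e, Clec4n, Clec4a1, Clec4a3, Clec7a, Clec4a2 and Clec10a. Without Celastrol 2 the Clec4a2 value turned to 0.13, and the other 7 kept their sign. In every treated library Clec10a was below the marker mean, and in both PBS libraries it was above.

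**Figure D4:**
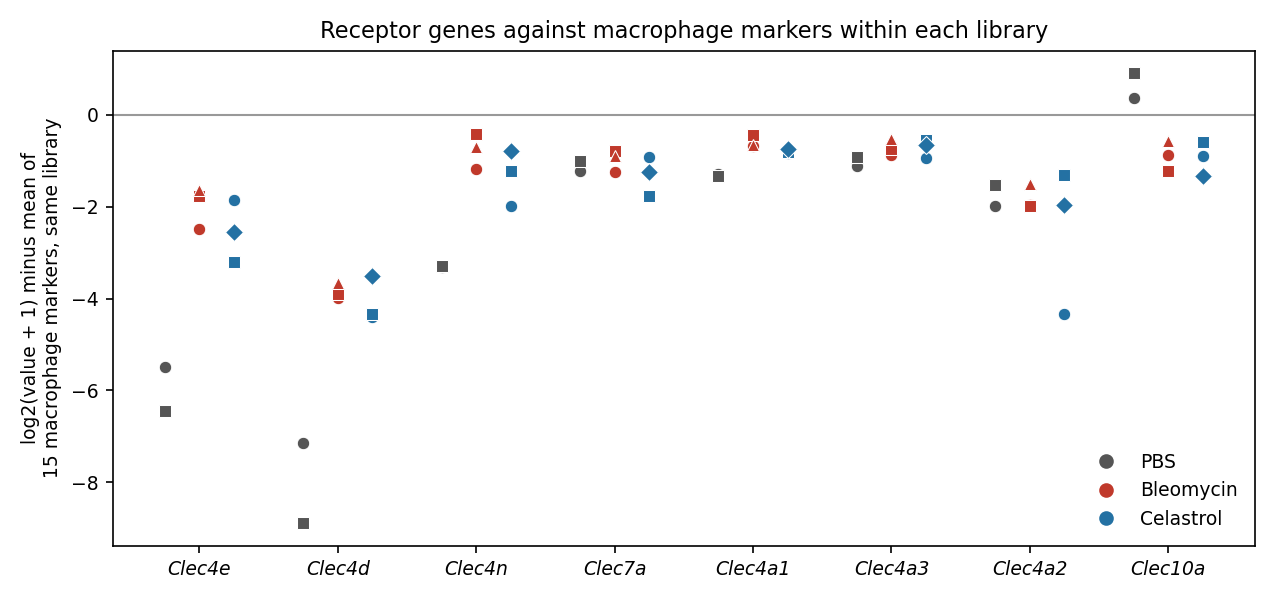
Level of each receptor gene, log2(value + 1), minus the mean of 15 macrophage markers in the same library. Each point is a library, with the symbol giving its replicate number as in the plot of values by library. PBS libraries are lowest for Clec4e, Clec4d and Clec4n, and for Clec10a they alone lie above 0.

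The signalling genes behind the activating receptors were looked at next. Of 21 genes of the Syk and Card9 pathway limma called 0 in any comparison, with 1 at an unadjusted p under 0.05 for bleomycin minus PBS, 1 for celastrol minus bleomycin and 3 for celastrol minus PBS, and medians of 0.06, -0.06 and -0.00. The Fc receptor gamma chain gene Fcer1g, which carries the activating motif for Clec4e, Clec4d and Clec4n, was at 191.9 and 122.5 in PBS and 263.1, 330.7 and 263.1 in bleomycin skin (0.88 ± 0.47, limma adjusted p = 0.905). The related adaptor gene Tyrobp differed by 0.52 ± 0.32 for bleomycin and 1.09 ± 0.32 for celastrol (adjusted p = 1 and 0.174). Syk itself differed by 0.11 ± 0.20 and -0.22 ± 0.20, and Card9 by 0.45 ± 0.61 and 0.72 ± 0.61, none past the threshold. The pathway gene of smallest p for bleomycin was Vav1, an exchange factor, at 1.20 ± 0.37 (adjusted p = 0.308).

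Inhibitory phosphatases and partners with inhibitory motifs gave 0 calls among 8 genes in any of the 3 comparisons by limma, with 4, 0 and 3 at an unadjusted p under 0.05 for bleomycin minus PBS, celastrol minus bleomycin and celastrol minus PBS. Ptpn6, the SHP-1 phosphatase that inhibitory receptors recruit, differed by 0.74 ± 0.32 in bleomycin skin (limma adjusted p = 0.68). The inhibitory receptor gene Lilrb4a was at 947.9 and 1074 in PBS and at 1872, 4093 and 2910 in bleomycin skin, without overlap (1.48 ± 0.30, adjusted p = 0.0627). Medians of the list were 0.54 and 0.33 for bleomycin and celastrol against PBS.

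Inflammatory products downstream of Syk and Card9 had 16 of 18 genes measured. Ccl2, which attracts monocytes, was the 1 called higher in each comparison with PBS, and 0 were called lower. Differences were positive for 14 of the 16 for bleomycin and 12 for celastrol. In each, 4 were higher and 0 lower at an unadjusted p under 0.05. Ccl2 was at 25.7 and 17.7 in PBS, 184.5, 108.5 and 157.3 in bleomycin and 149.4, 205.8 and 217.0 in celastrol skin. The rise was 2.72 ± 0.51 for bleomycin (limma adjusted p = 0.0425) and 3.08 ± 0.51 for celastrol (adjusted p = 0.0185), and both PBS libraries were below all treated libraries. The call failed in 9 of 14 alternatives for bleomycin, where leaving out any 1 library except Celastrol 2 ended it, and in 6 of 14 for celastrol, among them without PBS 2, PBS 3, Bleomycin 4 or Celastrol 5. With 1 library left out the bleomycin difference was 2.46 to 2.98, and the adjusted p over all alternatives 0.00304 to 0.312. The celastrol difference was 2.82 to 3.34, and its adjusted p 0.0105 to 0.161. Median differences of the list were 1.22 and 1.24, beside -0.00 and -0.07 over all genes. Of the 16 genes 8 were at 0 in at least 1 library, among them Il6, Ccl3 and Ccl4, whose differences from PBS had SEs of 1.71 to 1.95. The summed level of the list overlapped between groups, at 4400 and 2732 in PBS, 3092 to 4242 in bleomycin and 3681 to 4425 in celastrol skin. Cxcl1, a neutrophil attractant, differed by 2.37 ± 0.74 in bleomycin skin (adjusted p = 0.307) and the inflammasome gene Nlrp3 by 1.94 ± 0.59 (adjusted p = 0.28).

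Other C-type lectins of myeloid cells, 22 of 24 in the table and 21 tested, had differences in both directions. For bleomycin minus PBS 8 were positive and 13 negative, and for celastrol minus PBS 5 and 16. By limma 0 passed in any comparison, with 5 at an unadjusted p under 0.05 for bleomycin minus PBS (2 higher, 3 lower) and 13 for celastrol minus PBS (3 higher, 10 lower). Their medians were -0.69 and -1.81. Mgl2, the gene beside Clec10a that encodes the related lectin MGL2, was at 2307 and 1589 in PBS, 800.1, 1150 and 732.9 in bleomycin and 157.6, 627.6 and 657.5 in celastrol skin. Its treated libraries all stood below PBS, as those of Clec10a did, with differences of -1.13 ± 0.53 and -2.25 ± 0.53 (limma adjusted p = 0.774 and 0.0778). Differences were negative for all 7 measured genes of the Cd209 family, relatives of human DC-SIGN, in both comparisons with PBS, and Cd209a and Cd209b were listed at 0 in Celastrol 2. Spread among celastrol libraries also enters the SE of bleomycin minus PBS, because all libraries share a single fit. Cd209a was at 682.9 and 539.6 in PBS and 234.8, 258.8 and 177.1 in bleomycin skin, without overlap (-1.45 ± 1.77). The absence of calls in this list therefore does not show that bleomycin skin was unchanged. Mrc1, the macrophage mannose receptor, was at 8621 and 8467 in PBS and 7182 to 13000 in bleomycin skin, which enclosed the PBS values (0.13 ± 0.27). For celastrol minus bleomycin 5 genes of this list were at an unadjusted p under 0.05, all lower, and the list median was -0.65. Without Celastrol 2 the median of the 21 genes was -0.79 for celastrol minus PBS and -0.34 for celastrol minus bleomycin, Mgl2 stood at -1.57 against PBS (adjusted p = 0.0536), and the 7 Cd209 genes at -4.64 to -1.19. None of the 7 passed in that fit (limma adjusted p 0.0965 to 0.222). All 7 were lower in Celastrol 5 than in Celastrol 3. The lowest difference, that of Cd209b, rests largely on Celastrol 5, at 1.42 beside 116.4 in Celastrol 3.

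**Figure D5:**
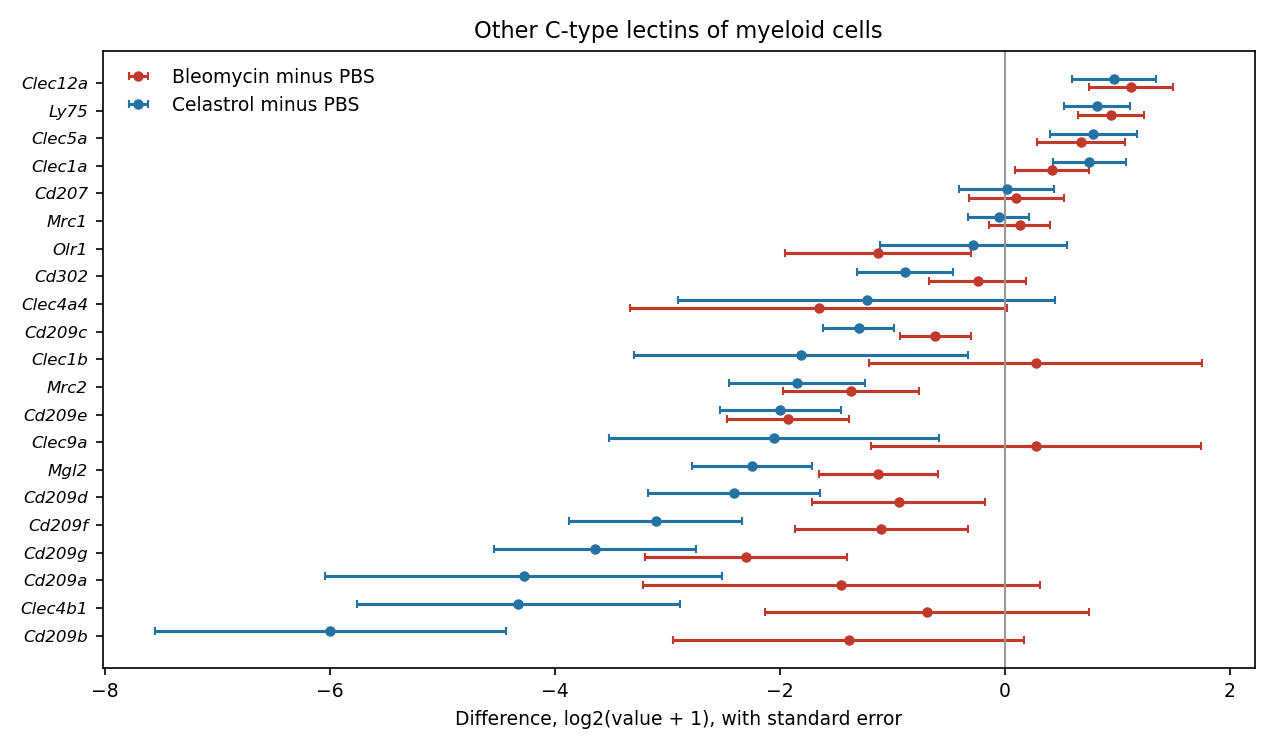
Difference from PBS in log2(value + 1) of 21 other C-type lectin genes of myeloid cells, bleomycin in red and celastrol in blue, with bars for the SE. Genes are ordered by the celastrol difference. No gene passed the threshold, and Mgl2 and the 7 Cd209 genes lie below 0 for both treatments.

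Neighbouring genes of the same clusters were examined by position. The span from Clec4a1 to Clec4e holds 2 other measured genes, Clec4a4 and Clec4b1, and neither was called by limma in any comparison. Clec4a4, the inhibitory receptor DCIR2 of a dendritic cell subset, was at 17.2 or less in all PBS and bleomycin libraries and differed by -1.66 ± 1.68 for bleomycin. Clec4b1 was at 53.1 and 66.7 in PBS, 32.4, 43.1 and 34.5 in bleomycin and 0, 0 and 26.6 in celastrol skin, below PBS in all 6 treated libraries. Its fitted difference was -0.69 ± 1.44 for bleomycin and -4.32 ± 1.44 for celastrol (limma adjusted p = 0.238 for celastrol). A direction opposite to that of the receptor genes in this span was therefore not shown for Clec4a4 or Clec4b1. Within 250 kb of Clec7a lay 19 other measured genes, mainly lectins of myeloid and natural killer cells, 18 of them tested and 0 called. The inhibitory uric acid receptor gene Clec12a was at 326.1 and 335.0 in PBS and at 613.6, 769.6 and 786.0 in bleomycin skin (1.12 ± 0.37, limma adjusted p = 0.379).

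C-type lectins of other cells, 14 of 16 measured, served as a contrast. Of these 0 were called in bleomycin skin, with 4 at an unadjusted p under 0.05, and 0 between celastrol and bleomycin, with 1. Clec2g, a ligand gene of the natural killer complex, rose in celastrol skin from 584.2 and 564.9 in PBS to 1480, 2092 and 1060 (1.37 ± 0.29, limma adjusted p = 0.047). That call failed in 10 of 14 alternatives, including the omission of any 1 library but Bleomycin 2, with differences of 1.12 to 1.61. Clec3b, which encodes tetranectin, differed by -2.95 ± 0.68 for bleomycin (adjusted p = 0.101) and was at 1562 and 679.7 in PBS and at 85.2 to 312.6 in bleomycin skin.

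The genes whose pattern over the 8 libraries was most like the mean scaled pattern of the 8 receptor genes were Itgam, Cybb, Samsn1, Atp6v1b2 and Tlr8, among 13379 candidates. Pearson correlations were 0.984, 0.977, 0.975, 0.975 and 0.968, over libraries that share the contrast between PBS and treatment, so they are a description. Itgam, the integrin alpha M chain of macrophages and neutrophils, was at 1169 and 806.6 in PBS, 2062 to 2705 in bleomycin and 1472 to 2373 in celastrol skin. Cybb, a subunit of the phagocyte NADPH oxidase, was at 1257 and 910.3 in PBS, 2155 to 2676 in bleomycin and 1819 to 2617 in celastrol skin. Samsn1 encodes an adaptor of blood cells, Atp6v1b2 a subunit of the vacuolar proton pump and Tlr8 an endosomal sensor of RNA.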

How the data were processed

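The values are the authors' normalized signal per gene and library. By the name of the deposited table, the signal is gene counts scaled with the poscounts size factors of DESeq2, and the submitters' processing notes name DESeq2 with Partek 10.0.22 and STAR 2.7.3a on mm10. Settings, gene annotation version and strand use are not given in the sources used here. The deposited table's signal steps gave whole reads for 62.6% to 72.3% of values (within 0.03 reads), so exact counts were not recovered and no count test was run. Reads given for Clec4d and Clec4e are estimates, the value divided by that of 1 read and rounded. Their Poisson intervals take the estimated reads summed over the PBS libraries and leave out counting error in the treated libraries. Depth is an estimate from the value of 1 read.

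Exon lengths and positions came from GENCODE M21, which 23752 genes matched by symbol and coordinates.

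A gene was tested when 2 or more libraries had values of 10 or higher (23185 kept, 1427 removed), on log2(value + 1) with limma 3.58.1 in R 4.3.3 (lmFit, eBayes with trend), 8 libraries and 3 groups in a single fit, two-sided, Benjamini-Hochberg adjustment over all genes tested, threshold 0.05 on the adjusted p. The procedure was tested on simulated data. The 8 genes and all gene lists were chosen with earlier results of these data known. Named are the 8 genes, per list the members called (at most 4) and a preset group of adaptors and lectins, and the 5 genes of highest correlation with a mean value of at least 50; Vav1, Lilrb4a, Cxcl1, Nlrp3, Clec12a, Clec3b, Clec4b1, the Cd209 genes and the called cell type markers were chosen after their values were seen. Alternatives changed the pseudocount, the filter, the scaling, the weights, the libraries fitted and the replicate block. The trimmed mean of M-values was computed by a separate implementation. Protein sequences were not analysed here.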

Additional observations from a re-analysis of the deposited data

How the results depend on the processing

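Across 14 alternatives the 8 receptor genes each kept their sign in bleomycin minus PBS. In celastrol minus PBS 7 did, the exception being Clec4a2, which kept it in 10. Counts of called genes depended strongly on the fit. For bleomycin minus PBS (157 genes, 2 receptor genes) a fit of only these groups gave 46 and 1, and library weights 711 and 5, with 384 higher and 327 lower. For celastrol minus PBS (317 and 3) a fit of only these groups gave 159 and 0. With 1 library left out the counts were 16 to 229 genes and 0 to 3 receptor genes for bleomycin minus PBS, 38 to 418 and 0 to 2 for celastrol minus PBS, and 0 to 1 and 0 for celastrol minus bleomycin. The median of the receptor genes was then 1.00 to 1.56, 0.90 to 1.46 and -0.57 to 0.02. The pseudocount of 5, the absence of a filter and the rescaled values left each of these counts within 1.5 times. The cause of these shifts was not tested. Fits with 1 library left out also rest on fewer libraries.

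Replicate numbers are shared across groups. Correlations of deviations from the group means were 0.203, 0.00725 and -0.00485 for number 2 and 0.0964, 0.111 and 0.0477 for number 3. Among libraries of other groups, PBS 2 and Bleomycin 2 were most like each other, as were PBS 3 and Celastrol 3. Bleomycin 3 was most like PBS 3, but Celastrol 2 was most like Bleomycin 3. The main fit did not pair the samples by number, and these values do not settle whether the numbers pair them. With the replicate block, 17 genes and 0 receptor genes were called for bleomycin minus PBS, and 41 and 0 for celastrol minus PBS. Depth limits Clec4d and Clec4e in PBS, where ratios rest on about 6 and 26 reads.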
